A study of Rattus norvegicus with 8 samples.

Results

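The mevalonate arm of cholesterol synthesis was taken here as 7 genes, Hmgcs1, Mvk, Pmvk, Mvd, Idi1, Fdps and Fdft1, and was chosen by the gene name printed for each probe on the array. All 7 genes were found among 18385 names on the array, as 10 of its 41012 probes, with a pair of probes each for Hmgcs1, Idi1 and Fdps and 1 probe for each of the other 4 genes. Hmgcs1 encodes the cytosolic synthase that makes 3-hydroxy-3-methylglutaryl-CoA. Later in the arm, the products of Mvk, Pmvk and Mvd phosphorylate and decarboxylate mevalonate, and the Idi1 isomerase and the Fdps synthase then build farnesyl diphosphate. This compound feeds protein prenylation and other isoprenoids, and the Fdft1 product, squalene synthase, commits it to sterols. Many genes of the pathway are transcribed under SREBP factors, which are activated when membrane sterol is low. In the fetal testis cholesterol is the precursor of the androgens made by Leydig cells.

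Whole testes of Sprague-Dawley rat fetuses, taken shortly after the gonad becomes a testis, were cultured for 72 h in medium with the vehicle DMSO or with mono-(2-ethylhexyl) phthalate (MEHP), the active monoester of a common plasticizer. There was 1 testis at 1 µM and there were 3 testes at 10 µM. According to the methods the treated testes came from 3 different litters, and whether the doses shared a litter is not stated. Each testis was hybridized on 2 Agilent 2-colour arrays with the dyes swapped. The other channel of all 8 arrays held the same pool of RNA from 3 vehicle testes, so both doses share their control, the spread between control testes was not measured, and a ratio against 0 was the test. An explant holds all cell types of the gonad, and in such samples fewer cells of a type and less RNA per cell cannot be told apart. All ratios are given as log2 of the MEHP signal over the vehicle signal on the same array. A value of 1 therefore stands for a 2-fold higher and a value of −1 for a 2-fold lower signal than the vehicle pool.

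The labels place MEHP on Cy3 in every array, while the methods swap the dyes within each pair. MEHP was therefore taken on Cy3 in the first hybridization and on Cy5 in the repeat. Before turning, the 2 arrays of every testis correlated negatively over 3788 probes well above background on all 8 arrays, with r between −0.822 and −0.492 across probes. Over all probes measured at 1 µM, however, the pair at this dose had r = 0.162 before turning. Testis 2 at 10 µM stood apart. The share of spots well above background was 0.249% for MEHP against 22.9% for vehicle in its first hybridization, and 1.54% against 9.23% in the repeat. The dim channel was Cy3 in the first and Cy5 in the repeat, as the swap requires. On the other 6 arrays these shares were 7.80% to 29.8% for MEHP and 9.61% to 31.9% for vehicle. None of the 20 member spots of testis 2 had an MEHP signal well above background, so its member ratios rest on signals near background and the means of the members at 10 µM are given with and without it. Testes 1 to 3 had median ratios of 0.09, −1.14 and −0.20 over all tested probes, and the testis at 1 µM had 0.03. Of the marker lists for the gonad, the Leydig marker Insl3 and the Sertoli markers Amh, Sox9 and Inhbb were well above background in the vehicle channel of all 8 arrays. So were the peritubular marker Des and the mesonephric marker Cdh1. The endothelial marker Kdr and the Leydig marker Hsd3b1 were so on 7 arrays, and 4 germ cell markers on the array were so on at most 2 arrays.

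The promoters of the 3 members that were higher at 1 µM and of the member that was lower at 10 µM are shown first. RefSeq promoters of 5 members matched by symbol, each of 300 bases from 250 before to 50 after the start, in build GRCr8. Capitals mark CCAAT and GGGCGG on either strand. The 4 sequences below are those of Hmgcs1 (chr2:53382054-53382353, plus strand), Mvd (chr19:67414925-67415224, minus strand), Idi1 (chr17:66547475-66547774, minus strand) and Fdps (chr2:176804767-176805066, minus strand), written 5′ to 3′ along the gene.
Hmgcs1: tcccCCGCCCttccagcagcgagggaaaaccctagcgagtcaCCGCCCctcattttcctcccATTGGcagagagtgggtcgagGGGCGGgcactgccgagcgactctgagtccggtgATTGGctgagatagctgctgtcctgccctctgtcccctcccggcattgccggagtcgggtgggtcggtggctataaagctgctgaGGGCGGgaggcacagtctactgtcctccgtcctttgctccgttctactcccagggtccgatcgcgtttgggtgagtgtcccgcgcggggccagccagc
Mvd: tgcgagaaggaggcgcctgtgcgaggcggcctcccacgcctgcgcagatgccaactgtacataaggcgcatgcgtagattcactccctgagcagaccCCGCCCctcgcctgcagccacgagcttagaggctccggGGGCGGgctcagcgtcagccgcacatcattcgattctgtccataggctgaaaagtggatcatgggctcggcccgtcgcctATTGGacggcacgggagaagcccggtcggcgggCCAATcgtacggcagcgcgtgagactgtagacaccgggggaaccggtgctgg
Idi1: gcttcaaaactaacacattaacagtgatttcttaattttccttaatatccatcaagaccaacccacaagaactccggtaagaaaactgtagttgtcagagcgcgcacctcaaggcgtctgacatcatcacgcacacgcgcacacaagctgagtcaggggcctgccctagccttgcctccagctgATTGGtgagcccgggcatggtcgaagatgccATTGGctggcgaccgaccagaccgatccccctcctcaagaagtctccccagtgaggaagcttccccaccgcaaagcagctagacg
Fdps: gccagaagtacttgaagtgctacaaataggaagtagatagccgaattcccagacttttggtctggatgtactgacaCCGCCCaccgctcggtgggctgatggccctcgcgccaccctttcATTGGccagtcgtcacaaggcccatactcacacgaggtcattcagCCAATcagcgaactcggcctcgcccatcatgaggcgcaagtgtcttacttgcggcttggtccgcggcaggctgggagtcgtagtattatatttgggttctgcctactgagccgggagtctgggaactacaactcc

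CCAAT was found in all 5 of these promoters, that of Mvk included, and in 37.5% of 33469 promoters of the same length. GGGCGG was found in 4 of the 5, all but Idi1, and in 33.1% of all promoters. The letters TCACNCCAC, one form of the sterol regulatory element, were in none of the 5 windows and in 1.12% of all promoters. The windows of Hmgcs1, Mvd, Idi1 and Fdps each held a pair of CCAAT matches. These matches were counted on both strands, the motifs did not overlap, and they are a description of the letters.

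At 10 µM MEHP the last enzyme gene before the branch, Fdps, had the lowest ratio of the arm, and both of its probes were below the vehicle level on all 6 arrays, with means of −1.82 ± 0.76 and −2.08 ± 0.61 (SD, n = 3). The second of these passed the test, and no other member probe did. At 1 µM the picture differed. Hmgcs1, Mvd and Idi1 were higher in both hybridizations of the single testis, on average 1.82, 1.71 and 2.84 times the vehicle level, and Fdps was 0.974 times that level on its brighter probe.

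Fdps makes farnesyl diphosphate, the common precursor of sterols, dolichol, ubiquinone side chains and prenyl groups. On the brighter Fdps probe testis 1 at 10 µM gave MEHP and vehicle signals of 2462 and 4340 at first and of 1766 and 3795 with the dyes swapped. Testis 3 had 1204 against 4405 and 1910 against 9174. In testis 2 the MEHP signals, 1011 and 389, were not well above background and stood against vehicle signals of 7326 and 1532. The vehicle signal was thus the higher of the pair on all 6 arrays. The log2 ratios were −0.82 and −1.10 in testis 1, −2.86 and −1.98 in testis 2, and −1.87 and −2.26 in testis 3. Expressed as folds of the testis means, Fdps was 1.95 times lower in testis 1, 5.34 times in testis 2 and 4.19 times in testis 3.

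The mean of the 3 testes on this probe was −1.82 ± 0.76 (SD, n = 3), and it missed the threshold (adjusted p = 0.0549, limma, Benjamini-Hochberg over 9913 probes). The second Fdps probe had testis means of −1.38, −2.43 and −2.44. Its mean was −2.08 ± 0.61 (SD, n = 3), a fall of 4.24-fold that passed (adjusted p = 0.0308). It was the only one of the 8 member probes tested that passed in either direction. Over the whole array 1.87% of tested probes were called lower and 0.373% higher. Without testis 2 both Fdps probes passed, with means of −1.51 (adjusted p = 0.0210) and −1.91 (adjusted p = 0.0102), but 10% of all probes were then called lower as well. Without testis 1 the adjusted p of both probes was 0.253 and without testis 3 it was 0.851, each with only 2 testes left. After centring each array the means were −1.36 and −1.63 and neither probe passed (adjusted p = 0.0614 and 0.0505), and with background correction by normexp and loess the means were −0.71 and −0.72 (adjusted p = 0.298 and 0.296).

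The arrays lay on 2 slides, with scan and slide changing together, and held testes 1 and 2 at 10 µM on the first and testis 3 and the testis at 1 µM on the other. Within the first slide the mean of the second Fdps probe was −1.91 and on the other slide testis 3 had −2.44, so the ratio was below −1 on both. With the slide as a block the adjusted p of the 2 probes was 0.355 and 0.287. At 1 µM the brighter probe had signals of 7326 for MEHP and 7073 for vehicle in the first hybridization and of 6439 and 7035 in the repeat. The ratios were 0.05 and −0.13 on this probe and −0.24 and −0.36 on the second. Between the doses the brighter probe differed by −1.78 ± 1.12 (SE, 10 µM minus 1 µM), and the limma fit over 4 testes gave an unadjusted p of 0.114 (adjusted p = 1.00). Within the slide that held both doses the difference was −2.03.

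**Figure D1:**
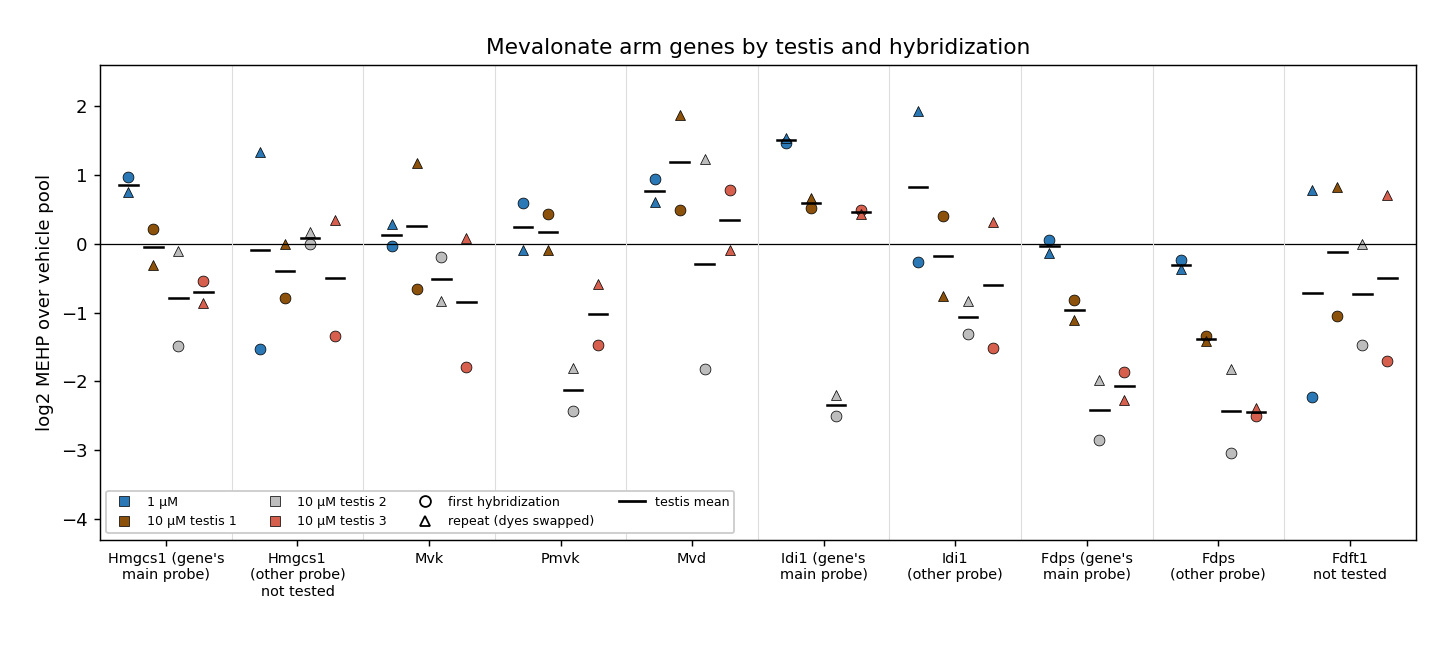
Log2 ratio of the MEHP testis over the vehicle pool for each of the 10 probes of the 7 genes, with circles for first hybridizations, triangles for the dye-swapped repeats, bars for the mean of a testis and colours for the 4 testes. Both Fdps probes lie below 0 on all 6 arrays at 10 µM, while Idi1 on its main probe lies above 0 on all arrays but those of testis 2.

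Fdps was also set against its neighbours, a comparison chosen after the values were seen. Taking 1 probe for each of the 6 genes tested at 10 µM, Fdps had the lowest ratio on both arrays of testis 1 and of testis 3. In testis 2 its −2.42 lay next to the −2.35 of Idi1, both on MEHP signals near background, and at 1 µM Mvk was lower than Fdps in the first hybridization. Its ratio minus the median ratio of the other 5 genes was −1.22, −1.62 and −1.36 in testes 1 to 3 and −0.81 in the testis at 1 µM. The mean of the differences at 10 µM was −1.40 ± 0.20 (SD, n = 3), and −1.29 without testis 2. Relative to the median of all tested probes, Fdps was at −1.05, −1.28 and −1.87 in testes 1 to 3 and at −0.07 at 1 µM. The 6 genes together had a median ratio of 0.22, −1.46 and −0.78 in testes 1 to 3 against 0.09, −1.14 and −0.20 for all tested probes.

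Hmgcs1 is the entry gene of the arm, since its product condenses acetoacetyl-CoA with acetyl-CoA. On its bright probe the testis at 1 µM had 12269 for MEHP against 6273 for vehicle, and 7482 against 4435 with the dyes swapped. The ratios were 0.97 and 0.75, with a mean of 0.86, or 1.82 times the vehicle level. At 10 µM the ratios were 0.22 and −0.30 in testis 1, −1.49 and −0.11 in testis 2, and −0.55 and −0.86 in testis 3. The testis means were −0.04, −0.80 and −0.70, all of them below 0 and below the testis at 1 µM, though the arrays of testis 1 differed in sign. Their mean of −0.51 ± 0.41 (SD, n = 3) did not pass (adjusted p = 0.673) and was −0.37 without testis 2 (adjusted p = 0.478), −0.06 with centred arrays and −0.07 with normexp and loess. The difference between the doses was −1.38 ± 1.11 (SE) with an unadjusted p of 0.218, −1.57 within the shared slide, −0.87 with centred arrays and −0.54 with normexp and loess. The second Hmgcs1 probe was dim, with the MEHP signal well above background on none of the 6 arrays at 10 µM, and it was not tested there. At 1 µM its hybridizations gave −1.52 and 1.34 and hence no direction.

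Mvk and Pmvk encode the kinases that phosphorylate mevalonate in turn. Mvk was dim, with the MEHP signal well above background on 2 of 6 arrays at 10 µM and 1 of 2 at 1 µM. Its testis means at 10 µM were 0.26, −0.51 and −0.85. The mean of −0.37 ± 0.57 (SD, n = 3) did not pass (adjusted p = 0.786), was −0.29 without testis 2 (adjusted p = 0.610) and became 0.09 with centred arrays. The 1 µM testis had −0.03 and 0.28. Pmvk had testis means of 0.17, −2.12 and −1.02, so testis 1 did not share the low ratios of the other two. Its mean was −0.99 ± 1.15 (SD, n = 3; adjusted p = 0.347), and −0.43 without testis 2 (adjusted p = 0.453). The hybridizations of Pmvk at 1 µM gave 0.59 and −0.09.

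Mvd encodes the decarboxylase that yields isopentenyl diphosphate. At 1 µM its signals were 2505 against 1304 and 2016 against 1328 (MEHP against vehicle), giving ratios of 0.94 and 0.60. At 10 µM the ratios were 0.49 and 1.88 in testis 1, −1.82 and 1.24 in testis 2 and 0.78 and −0.09 in testis 3. Mvd was thus the member with a mean above 0 at 10 µM, of 0.41 ± 0.74 (SD, n = 3; adjusted p = 0.756), or 0.77 without testis 2 (adjusted p = 0.154). The value was −0.18 from the first hybridizations alone. The difference between the doses was −0.36 ± 1.12 (SE).

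Idi1 encodes the isomerase that supplies dimethylallyl diphosphate, the partner of isopentenyl diphosphate in the Fdps reaction. Its main probe had the highest ratio of the arm at 1 µM. The signals were 3765 against 1357 at first and 2572 against 884 in the repeat, 2.78 and 2.91 times the vehicle. At 10 µM the ratios were 0.52 and 0.67 in testis 1 and 0.49 and 0.44 in testis 3, which lay above 0 in both dye orientations. In testis 2 they were −2.50 and −2.20, on MEHP signals of 458 and 141 that were not well above background. The mean was therefore −0.43 ± 1.66 (SD, n = 3; adjusted p = 0.748) with testis 2 and 0.53, or 1.44 times the vehicle, without it (adjusted p = 0.288), and it was 0.02 with centred arrays. The second Idi1 probe was dim and its hybridizations disagreed at 1 µM (−0.27 and 1.93). The same probe gave testis means of −0.18, −1.07 and −0.60 at 10 µM and an average of −0.62 ± 0.45 (SD, n = 3; adjusted p = 0.594), or −0.39 without testis 2 (adjusted p = 0.446). The 2 probes therefore differed in sign in testes 1 and 3. The difference between the doses on the main probe, −1.94 ± 1.14 (SE), had the lowest unadjusted p of the arm, 0.0909.

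Fdft1, the squalene synthase gene, was too dim to be tested at 10 µM. No MEHP signal of the 6 arrays, which ranged from 47.5 to 212, was well above background, and the vehicle signal was so on 2 arrays. On the repeat array of testis 2 both channels were at substitute values and the file lists a ratio of 0. At 1 µM the hybridizations gave −2.23 and 0.79.

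**Figure D2:**
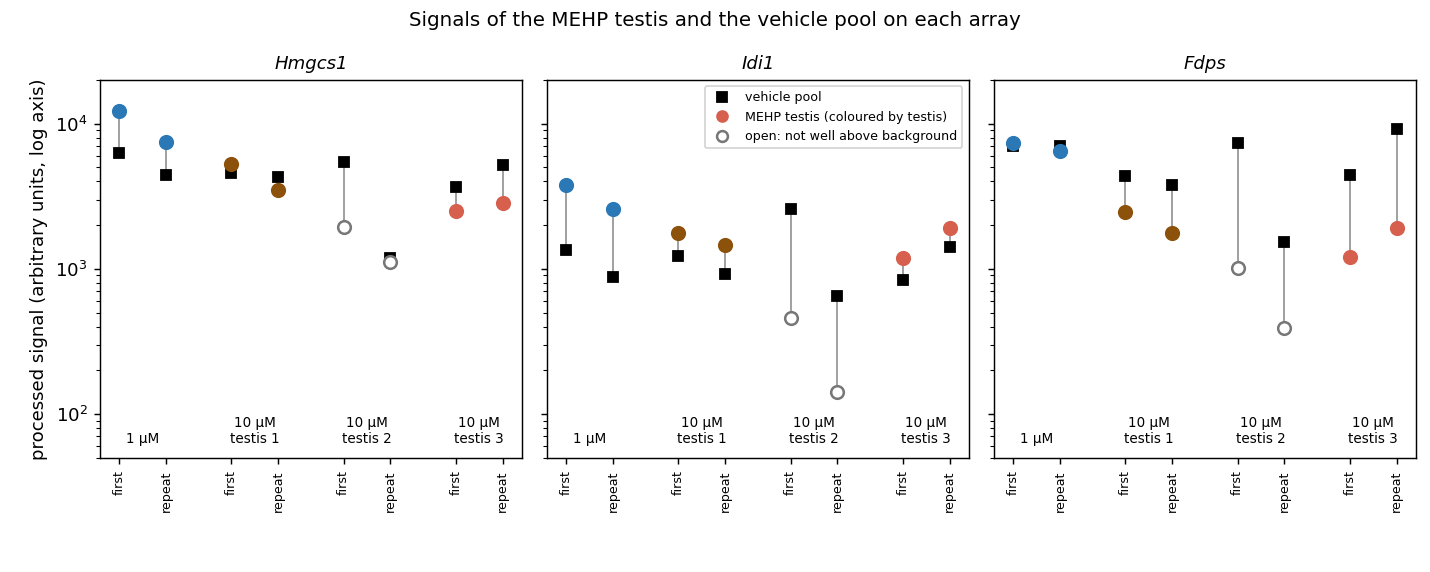
Processed signals (arbitrary units, log axis) of the MEHP testis (circles) and the vehicle pool (squares) on each of the 8 arrays, joined by a line, for the main probes of Hmgcs1, Idi1 and Fdps. Open symbols were not well above background, and signals of different probes are not to be set against each other. The MEHP circle lies above the square for Hmgcs1 and Idi1 at 1 µM and below it for Fdps at 10 µM.

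At 1 µM, where 1 testis gave no spread between testes, a probe was counted if both hybridizations reached 1.5-fold the same way. Of the 10 member probes 3 were higher by this rule, the main probes of Hmgcs1, Mvd and Idi1, and none was lower. Over the whole array 4.05% of 13174 measured probes were higher and 2.96% lower. At a limit of 2-fold Idi1 alone was left, against 1.18% of all probes. With normexp and loess none of the member probes was at least 1.5-fold higher in both, and with centred arrays only Idi1 was. Between the doses all 8 tested member probes had a lower value at 10 µM than at 1 µM, as did 78.5% of all tested probes. With centred arrays 6 of the 8 did so, without Mvk and Mvd, and the share of all probes in that setting is not given here. The 1 µM testis lay above each of the 3 testes at 10 µM on 6 of the 8 member probes and on 38.4% of all tested probes. No member passed the test of the difference (limma), nor did any probe of the array, of which 0% were called and 24 had an unadjusted p under 0.05. At 10 µM 4 of the 8 member probes had ratios below 0 in all 3 testes, both of Fdps, the main probe of Hmgcs1 and the second of Idi1, against 36.2% of all tested probes.

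The rest of the cholesterol pathway was read from 32 genes, of which 30 were on the array, 18 were measured at 1 µM and 18 were tested at 10 µM. At 1 µM, on the probe that stands for each gene, 5 of the 18 were at least 1.5-fold higher in both hybridizations and none was lower. Together with the members this made 8 of 25 genes higher, with a median ratio of 0.13 over the 25 genes against 0.02 over all measured probes, of which 4.05% were higher. With centred arrays the members' share of this count was Idi1 alone. The 5 genes were Lss, Tm7sf2, Sc4mol and Ebp of the sterol branch and Insig1 of sterol sensing. Ebp, the sterol isomerase, had 1.54 and 1.55. Insig1, whose product retains the SREBP complex in the endoplasmic reticulum and which is itself a target of SREBP, had 1.22 and 1.71. Its other probes gave 0.93 and 0.82, 1.12 and 0.49, and, on a dim probe, −1.68 and 1.85. Lanosterol synthase (Lss) had 1.25 and 1.08, the sterol reductase Tm7sf2 had 0.75 and 1.03, and the methyl sterol oxidase Sc4mol had 0.81 and 0.89. Counted by group, these were 4 of 7 measured genes of the sterol branch and 1 of 4 of sterol sensing, with 0 of 4 of the isoprenoid branches and 0 of 3 of the entry step, and the difference between the groups was not tested. All 5 genes reached the limit on their main probe with centred arrays as well, by which 4.28% of all probes were higher. With loess without background correction 3 of them (Sc4mol, Ebp and Insig1) did, among 0.584% of all probes. None did with normexp and loess, by which 0.501% of all probes were higher.

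At 10 µM none of the 18 other genes passed in either direction, and their median was −0.50 against −0.42 for all tested probes (−0.15 against −0.04 without testis 2). The 5 genes named above were chosen for their values at 1 µM, and of 368 tested probes chosen the same way 91.3% had a lower mean at 10 µM. Sc4mol had testis means of −0.33, −2.15 and −0.97, and the main Insig1 probe had 0.71, −1.96 and −0.17. Other tested Insig1 probes were lower in testis 3, at −1.90 and −1.51, with means of −1.11 and −0.58 at 10 µM. Tm7sf2 had 0.23, −1.91 and −0.54. Lss remained above 0 in all 3 testes with 1.67, 0.80 and 0.09, and Ebp had 1.08, −0.62 and 1.15. Without testis 2 Ebp passed as higher (mean 1.11, adjusted p = 0.0417) among 7.51% of all probes. In the same fit Fnta, a subunit of the farnesyl and geranylgeranyl transferases that use the product of Fdps, passed as lower (mean −1.57, adjusted p = 0.0175). A dimmer probe of Acat1 also passed as lower (mean −1.64, adjusted p = 0.0183), and its brighter probe did not (mean −0.99, adjusted p = 0.0720). These stood among 10% of all probes called lower. Of the 5 genes chosen at 1 µM Sc4mol had the lowest unadjusted p for the difference between doses, 0.0760.

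**Figure D3:**
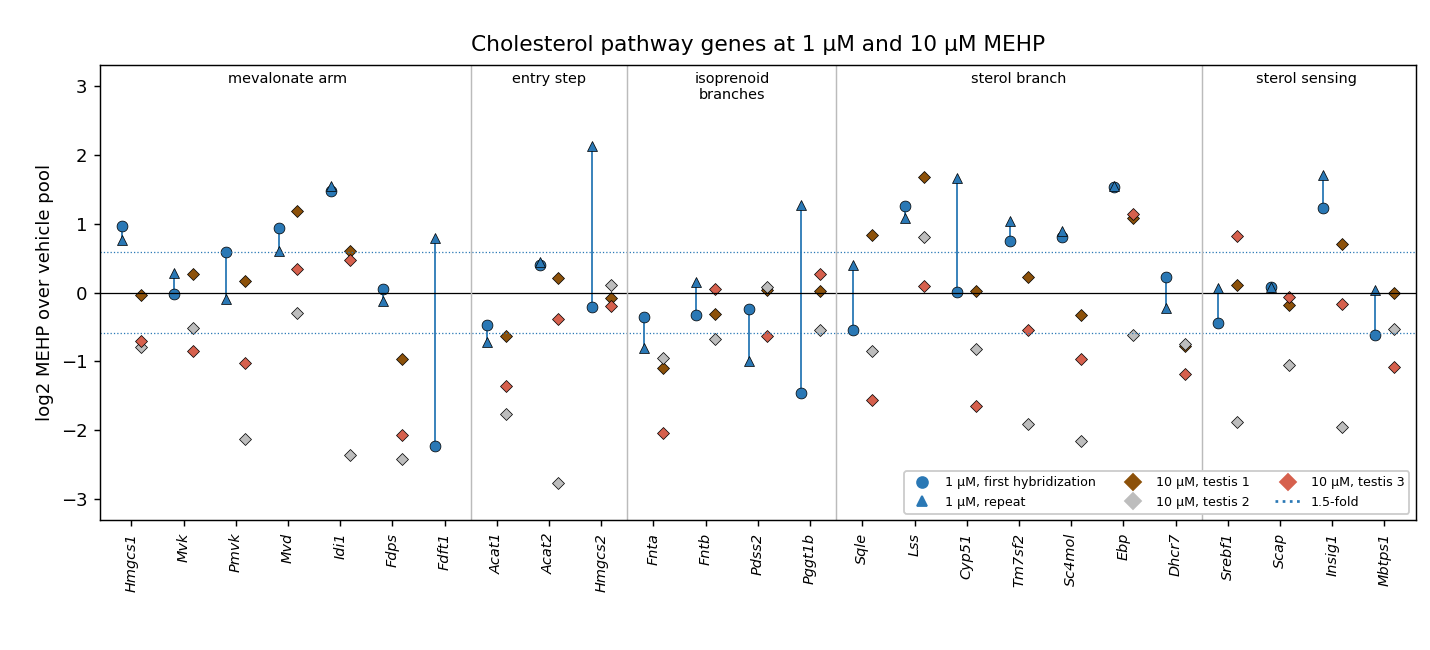
Log2 ratio over the vehicle pool of the 25 pathway genes measured at 1 µM, with circles and triangles for the 2 hybridizations of the 1 µM testis and diamonds for the testis means at 10 µM where the gene was tested. The 8 genes named in the text have both 1 µM symbols above the upper dotted line, which marks 1.5-fold, and the 10 µM diamonds of Fdps lie at −0.96 or lower.

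The marker lists of the gonadal cell types were read in the same way. The summed signal of the 7 Leydig markers gave log2 ratios of −0.56, −1.24 and −1.62 in testes 1 to 3 and 0.05 at 1 µM, and that of the 7 Sertoli markers 0.09, −1.35 and −0.82 and −0.01. At 1 µM the Leydig markers Insl3 (−1.96 and −1.65) and Cyp17a1 (−1.23 and −0.98) were lower in both hybridizations while Star (1.56 and 2.10) and Cyp11a1 (0.80 and 0.76) were higher. The Sertoli marker Dhh (−1.78 and −1.17) and the mesonephric markers Cdh1 (−0.82 and −0.79) and Epcam (−0.87 and −0.76) were also at least 1.5-fold lower in both. The MEHP signals of Cyp17a1, Cyp11a1, Dhh and Epcam were well above background on 1 of these 2 arrays. Of all measured probes 2.96% were lower by this rule. At 10 µM Cyp17a1 alone of the 4 tested Leydig markers passed as lower, and none of the 4 Sertoli or 3 mesonephric markers tested did. Without testis 2, Insl3, Cyp17a1 and the Sertoli markers Dhh and Inhbb passed as lower on their main probes. So did the mesonephric markers Cdh1 and Epcam and the peritubular marker Tagln, where 10% of all probes were called lower. Other markers of these lists lay above 0 in the same fit and did not pass. They were the mesonephric Pax2 (mean 0.93, adjusted p = 0.0745), the Sertoli Sox9 (0.75, adjusted p = 0.151) and the peritubular Des (0.54, adjusted p = 0.281). Pax2 was above 0 in each testis at 10 µM (0.93, 0.54 and 0.93). A second Inhbb probe went the other way, with a mean of 1.10, or 0.28 without testis 2 (adjusted p = 0.621). A second Hsd3b1 probe passed as lower without testis 2 (mean −1.53, adjusted p = 0.0164). The summed signal of 4 markers of mesonephric epithelium was −0.95, −1.27 and −0.96 at 10 µM and −0.68 at 1 µM. That of 4 endothelial markers was 0.83, −1.19 and 0.75 at 10 µM and 0.41 at 1 µM. Germ cell markers gave −0.40, −0.27 and −0.68, peritubular markers 0.57, −1.43 and 0.22, and blood markers −0.02, −0.31 and 1.00 in testes 1 to 3. At 1 µM these 3 lists stood at 0.02, 0.21 and 0.66. No germ cell marker had an MEHP signal well above background on any array, so those sums rest on signals near background. Only Cd68 of the blood list and only Kdr of the endothelial list could be tested at 10 µM. The tested peritubular markers differed, with 0.69, −2.18 and 0.39 for Des and −1.22, −0.78 and −1.20 for Tagln. On the probe that stands for the gene, Lhcgr, Nr5a1, Cldn11, Fshr, Pou5f1, Dppa3, Kit, Cnn1, Pax8, Pecam1, Cdh5, Tek, Hbb and Ptprc were not well above background in the vehicle channel of any array. The part of these markers in the ratios of the arm was not tested.

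A search for probes like the main Fdps and Hmgcs1 probes covered 5192 tested probes with a gene symbol. Members of the arm and provisional gene names were left out of it, so no member could appear. Over the 8 arrays the probes most like the main Fdps probe were those of Prdx3, Echs1, Cox4i1, Psma3l and Ndufa9. They differed from it by a root mean square of 0.27 to 0.32 on the log2 scale, and their own means at 10 µM were −1.74, −1.70, −1.77, −1.62 and −1.85. For Hmgcs1 the nearest probes were those of Gadd45b, Hnrpa3, Znf183, Egln2 and Hspb1, at 0.37 to 0.43, and none of them was in the pathway list. All arrays share the vehicle pool, so the likeness is a description over 4 testes.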

How the data were processed

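The authors extracted each array image with Agilent Feature Extraction (version 9.1 in the submitters' processing notes) and deposited, for every spot, the log10 ratio of red over green after background subtraction and dye normalization, its error, the mean and background intensity of both dyes, and flags. The deposited lists of the authors' own comparisons (folds and p-values) were not used.

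The deposited log10 ratios were converted to log2 and turned to MEHP over vehicle. Control spots and outlier spots were left out, and spots of a probe were averaged. The 2 hybridizations of a testis were averaged to 1 replicate. At 10 µM a probe entered the test if either channel was well above background on 3 or more of 6 arrays, and at 1 µM it counted as measured if so on 1 or more of 2 arrays. Ratios were tested against 0, and the doses against each other, with limma 3.58.1 (R 4.3.3, two-sided, adjusted p under 0.05). The lone 1 µM testis is given the spread of the other testes. Of a gene's tested probes the brightest stands for it. The fit was tested on simulated ratios of testes alike in quality and without a testis-wide shift. That test therefore does not cover a dim testis such as testis 2. The number of testes limits the precision. Centring, background correction, filters, dye direction, single hybridizations, slide, random block and leaving out each testis were tried. Members and lists were chosen with earlier results of these data known. Probe sequences and proteins were not used here, and 1 gene of the pathway list is not reported here.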

Additional observations from a re-analysis of the deposited data

Results flagged for a closer look

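Hmgcs1 (main probe) had its testis at 1 µM above the vehicle pool in both hybridizations and each of the 3 testes at 10 µM below it. The difference between the doses was −1.38 on the log2 scale, with an unadjusted p of 0.218 in the limma fit and an adjusted p of 1.00, so the opposite signs did not pass the test of the difference. It was −0.87 with centred arrays and −0.54 with normexp and loess. In testis 1 the hybridizations had opposite signs, and testis 2 stood 0.34 above the median of its own tested probes.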

How the results depend on the processing

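With 1 testis at 1 µM and a common vehicle pool, the testis and the dose cannot be told apart at this dose, and testis 2 at 10 µM limits every mean at 10 µM by its dim MEHP signals. No paired analysis was made, because the sample titles do not pair the 1 µM testis with a testis at 10 µM. Of the member probes 1 was called lower at 10 µM. This count was 0 with normexp and loess, with loess without background correction, with centred arrays, with no filter on dim probes, with both channels required well above background, with the dyes as labelled, with either hybridization alone, with the testis as a random block and with the slide as a block. It was 2 with a trended prior, 2 with centred arrays without testis 2 (chosen after seeing the data) and 4 with an error-weighted mean over arrays, by which 2 probes were called higher. At the methods' own threshold on unadjusted p that mean called 3 member probes lower and 1 higher, where it called 51.7% of all tested probes. For the trended prior, the centred arrays without testis 2 and the error-weighted mean at adjusted p, the shares of all probes are not given here. The counts under those settings are therefore not a result about the members. Leaving out each testis in turn gave 0 to 2. At 1 µM 3 probes were at least 1.5-fold higher in both hybridizations. This count was 0 with normexp and loess, 0 with the dyes as labelled (2 lower), 1 with centred arrays and 1 at a 2-fold limit. It was 6 from the repeat alone and 4 from the first hybridization alone, which also gave 2 lower. For the dyes as labelled and for single hybridizations the shares of all probes are not given here. Those counts at 1 µM are therefore not a result about the members either. The mean of the main Idi1 probe at 10 µM was −0.94 to 0.53 with each testis left out in turn, changing sign to 0.53 without testis 2, and became 0.0240 with centred arrays, 0.62 with both of these, 0.17 with normexp and loess, 0.17 with loess without background correction and 0.34 with the error-weighted mean. The mean of Mvk became 0.0860 with centred arrays and 0.15 in the repeats alone, and that of Mvd −0.18 in the first hybridizations alone and −0.60 with the dyes as labelled. The dose difference of Mvd became 0.15 with centred arrays and 0.41 in the repeats alone, that of Mvk 0.0084 with centred arrays, that of the second Idi1 probe 0.91 with the dyes as labelled, and the main Idi1 probe at 1 µM −0.0341 with the dyes as labelled. The cause was not tested. No difference between doses passed for a member under the settings in which it was fitted, which leave out the error-weighted mean and centred arrays without testis 2.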
